A study of Mus musculus with 6 samples.

Results

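The 34 genes described here encode enzymes that make, salvage and break down nucleotides, together with the folate-cycle enzymes that supply their one-carbon units. They were taken as a list by gene symbol: guanine deaminase (Gda), other purine enzymes, pyrimidine enzymes, nucleotide kinases and folate enzymes. The list was chosen with earlier results of these data known, so its shares set beside those of all genes are descriptions only. All 34 had a row among the 33157 rows of the count table, and all 34 passed the filter on low counts that left 13483 genes to test. The cells were ILC3s (group 3 innate lymphoid cells, which live in the gut wall and make IL-22 and IL-17), sorted from wild-type mouse small intestine as CD45+ lineage-negative CD127+ KLRG1- cells with high CD90.2. The IGF-1 group was cultured for 4 h with interferon-γ at 20 ng/mL plus insulin-like growth factor 1 (IGF-1) at 200 ng/mL, and the control group for 4 h with interferon-γ at 20 ng/mL alone. There were 3 libraries per group and no cultures without interferon-γ. Every difference below is thus between groups with and without added IGF-1, both of which received interferon-γ. Whether a group's 3 libraries came from separate mice or cultures is not stated, so each p-value is set against the spread among libraries, which may be technical.

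Cells build purines on phosphoribosyl pyrophosphate (PRPP) through a chain of steps to IMP, which is then turned into AMP or GMP, and they build pyrimidines through orotate to UMP. Both routes are costly, and salvage enzymes recover bases and nucleosides, while guanine deaminase commits guanine to breakdown. The folate cycle, split between cytosol and mitochondria, carries the one-carbon units used to close the purine ring and to make thymidylate. In lymphocytes this network is known to be raised when growth signals act through mTORC1, MYC and ATF4.

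Total counts ranged from 36171528 to 39206449 per library with IGF-1 and from 32573713 to 38076876 in controls, of which 72413 to 76978 and 55201 to 64753 fell on the 34 genes. The ILC3 markers Il7r, Thy1 and Il23r were present in every library, at 205 to 582 CPM with IGF-1 and 262 to 686 CPM in controls. CPM here are counts scaled by TMM-adjusted library size. Control replicate 3 stood apart by plasma cell transcripts: the immunoglobulin A heavy chain Igha was at 1308 CPM and Jchain at 519 CPM there, against at most 5.54 and 0.209 CPM in the other 5 libraries. For genes called by any tool, the edgeR value without that library is given as well.

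Of the 34 genes, 1 was called higher with IGF-1 and 0 were called lower. The call is a Benjamini-Hochberg adjusted p under 0.05 from edgeR's quasi-likelihood test over all 13483 genes, of which 0.497% were called in either direction, 0.230% higher and 0.267% lower. The gene called was Gda. At an unadjusted p under 0.05 edgeR gave 4 of the 34 higher and 0 lower, or 11.8% of them, against 11.8% of all genes in either direction. DESeq2 called 3 higher (Gda, Nme1 and Gmps) and 0 lower, against 3.38% of all genes in either direction, 1.48% higher and 1.90% lower. By limma-voom Gda alone was called, against 36 genes higher and 60 lower of all 13483. The IGF-1 and control libraries did not overlap for 6 of the 34 genes (17.6%), all 6 higher with IGF-1, and for 18.0% of all genes, 8.81% higher and 9.17% lower. Counted in either direction, the share of genes with separate groups was thus close to the background. Counted as higher alone it was 17.6% against 8.81%, a difference that was not tested.

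**Figure D1:**
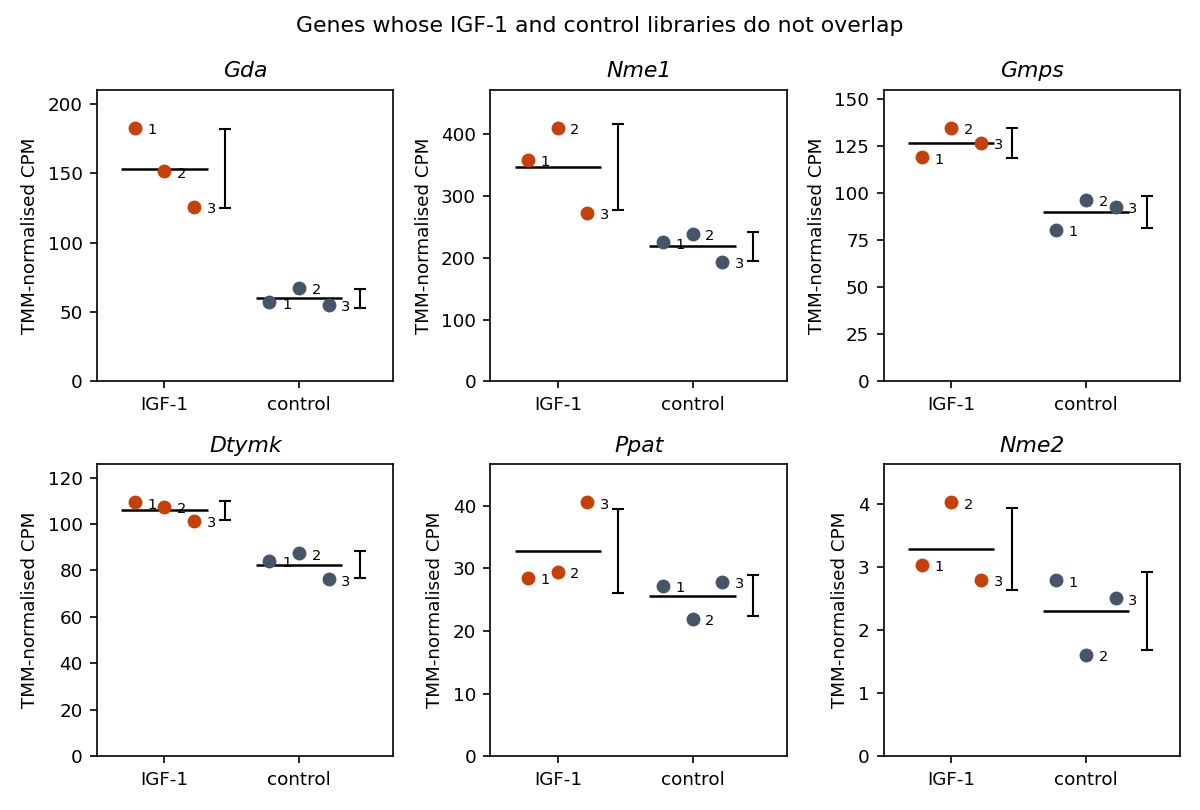
TMM-normalised CPM (y axis, from 0) of the 6 nucleotide genes whose libraries did not overlap, with IGF-1 on the left and control on the right of each panel. Points are libraries with their replicate number, horizontal lines are means and vertical bars are ±1 SD (n = 3). Gda has the widest gap, with 126 CPM in the lowest IGF-1 library and 67.4 CPM in the highest control library, while Ppat and Nme2 are separated by less than 1 CPM.

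Gda, which deaminates guanine to xanthine and so removes a base that salvage could otherwise return to GMP, more than doubled with IGF-1. It stood at 183, 151 and 126 CPM in IGF-1 replicates 1, 2 and 3, against 57.0, 67.4 and 55.1 CPM in control replicates 1, 2 and 3. Every IGF-1 library was above every control library, and the IGF-1 libraries were spread more widely. The means were 153 ± 28.6 CPM with IGF-1 and 59.8 ± 6.62 CPM in controls (SD, n = 3 each). The log2 fold change was 1.36 (SE 0.16, 95% interval 1.01 to 1.71, edgeR adjusted p = 0.0143), a 2.56-fold higher level. Gda was 4 in order of p among the 67 genes called and 12 in order of fold change among the 31 called higher.

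The call on Gda was lost without any of 3 libraries, while the size of the difference moved little. Over the 6 fits that each left out 1 library the log2 fold change ran from 1.21 to 1.48. The call was lost without IGF-1 replicate 1 (1.21, edgeR adjusted p = 0.0692), without IGF-1 replicate 2 (1.37, edgeR adjusted p = 0.121) and without control replicate 3 (1.30, edgeR adjusted p = 0.0718). Nearly all calls over all genes were lost in the same 3 fits. In that order 0, 0 and 0 genes were higher and 0, 1 and 2 lower, against 31 and 36 with every library. The call on Gda behaved differently in the remaining fits. There it was kept, without IGF-1 replicate 3 (1.48, edgeR adjusted p = 0.0159), without control replicate 1 (1.33, edgeR adjusted p = 0.0327) and without control replicate 2 (1.45, edgeR adjusted p = 0.0448). Over every alternative run the adjusted p lay between 9.53e-16 with no filter and 0.121. The 8 epithelial markers summed to 14.8 to 22.1 CPM with IGF-1 and 33.3 to 48.5 CPM in controls, a sum that Epcam carried; the other 7 averaged under 1 CPM, with Krt19 and Alpi at 0 in every library and Epcam called lower (log2 fold change -1.14, edgeR adjusted p = 0.0442). The part of epithelial RNA in the level of Gda was not tested. In a bulk sample, fewer cells of a type and less RNA per cell cannot be told apart.

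The promoter of Gda is shown because it is the one gene of the list that was called, beside those of Gmps and Dtymk, which had the smallest p of the rest where a window free of annotated exons could be read. The sequences are RefSeq's for mouse build GRCm38.p6, 5′ to 3′ on the strand of the gene, and run up to the first annotated exon base. Capitals mark the E-box CACGTG, the ATF4 and C/EBP element TGATGNAA, the CCAAT box and the GC box GGGCGG, searched on both strands. Gda lies on chromosome 19 (chr19:21472673-21472911, minus strand, 239 bases), Gmps on chromosome 3 (chr3:63975893-63976105, plus strand, 213 bases) and Dtymk on chromosome 1 (chr1:93801935-93802184, minus strand, 250 bases).
Gda: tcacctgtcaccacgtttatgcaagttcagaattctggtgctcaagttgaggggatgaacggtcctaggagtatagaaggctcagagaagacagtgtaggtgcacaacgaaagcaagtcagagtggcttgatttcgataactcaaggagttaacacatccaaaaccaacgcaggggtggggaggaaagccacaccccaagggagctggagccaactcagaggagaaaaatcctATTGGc
Gmps: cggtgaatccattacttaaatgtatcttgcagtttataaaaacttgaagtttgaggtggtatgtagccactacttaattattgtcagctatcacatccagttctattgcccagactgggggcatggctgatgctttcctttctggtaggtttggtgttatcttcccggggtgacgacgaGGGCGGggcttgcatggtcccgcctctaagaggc
Dtymk: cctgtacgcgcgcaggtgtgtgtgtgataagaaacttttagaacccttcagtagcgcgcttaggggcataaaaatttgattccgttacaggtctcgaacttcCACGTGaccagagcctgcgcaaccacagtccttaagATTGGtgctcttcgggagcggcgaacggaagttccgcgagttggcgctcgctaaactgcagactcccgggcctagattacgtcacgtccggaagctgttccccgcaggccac
The Gda stretch held 1 CCAAT box near its downstream end and neither an E-box nor an ATF4 element, with 49.4% G and C. Dtymk held 1 E-box and 1 CCAAT box, and Gmps 1 GC box. For Nme1, the upstream window is exonic in another annotated transcript, so only the 30 bases around its E-box are shown (chr11:93968273-93968302, minus strand), beside the same stretch of Dtymk (chr1:93802065-93802094, minus strand).
Nme1: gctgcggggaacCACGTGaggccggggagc
Dtymk: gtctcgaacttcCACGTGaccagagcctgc
The motif ended 12 bases before the RefSeq start of Nme1 and 142 bases before that of Dtymk. Over the 250 bases before the start, an E-box was present in 7 of the 32 genes of the list with a promoter entry (21.9%), namely Ampd3, Atic, Dtymk, Impdh2, Nme1, Paics and Tyms, and in 9.6% of 10002 tested genes. The ATF4 element was in 1 of the 32 (Prps1, 3.1%) against 2.4%, the CCAAT box in 13 (40.6%) against 40.7%, and the GC box in 25 (78.1%) against 62.1%. A match is a description of letters, not evidence of binding. Of the 7 genes with an E-box, Nme1 and Dtymk had IGF-1 libraries entirely above the controls. So had Gda, Gmps, Ppat and Nme2, which had no E-box, and 8.81% of all genes. The fold changes of Atic, Impdh2, Paics, Ampd3 and Tyms, which had an E-box, lay between -0.05 and 0.20. A link between the motif and the differences was not tested.

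The other 6 enzymes of purine salvage and breakdown were not called, with log2 fold changes from -0.16 to 0.30 and a median of 0.13. Pnp, the phosphorylase that frees guanine and hypoxanthine from their nucleosides and so makes the substrate of Gda, stood at 82.5, 91.0 and 79.4 CPM with IGF-1 and at 64.8, 85.1 and 73.6 CPM in controls. Its groups overlapped, and the difference was 0.18 (SE 0.14, 95% interval -0.13 to 0.48, edgeR adjusted p = 0.682). Pnp shares 25.8% of its 50-base stretches with other annotated genes, so its reads may be divided among them. Aprt, which salvages adenine, was the most abundant of the 34 per exon length, at 105 ± 13.8 CPM per kilobase with IGF-1 and 98.9 ± 5.84 CPM per kilobase in controls (SD, n = 3 each). Ada, which deaminates adenosine, averaged 14.6 and 11.8 CPM with and without IGF-1 (log2 fold change 0.30, SE 0.28), and adenosine kinase Adk 13.1 and 14.6 CPM (-0.16, SE 0.24). Of the AMP deaminases, Ampd2 carried nearly all the reads, at 5.28 CPM per kilobase with IGF-1 and 4.70 in controls, against 0.156 and 0.161 for Ampd3. With so few reads Ampd3 had a 95% interval of -2.49 to 2.40, so its difference was not measurable at this depth.

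PRPP synthetases, which make the sugar donor for purines and pyrimidines, gave fold changes of opposite sign. Prps1 was at 20.5, 26.0 and 16.6 CPM with IGF-1 and at 24.4, 25.7 and 34.1 CPM in controls (log2 fold change -0.42, SE 0.22, edgeR adjusted p = 0.492). IGF-1 replicate 2 lay inside the control range. Prps2 was at 42.5, 37.4 and 39.0 CPM with IGF-1 and at 39.1, 37.9 and 27.6 CPM in controls (0.18, SE 0.17, edgeR adjusted p = 0.745). Neither was called, and the difference between them was not tested. Prps1 shares 10.1% of its 50-base stretches with Prps1l3, a row with 831 to 1409 counts with IGF-1 and 956 to 1222 counts in controls, so the division of reads between these copies is uncertain.

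De novo purine synthesis held 0 called genes of 9 by edgeR, with 5 positive and 4 negative fold changes and a median of 0.01. The gene with the smallest p was Gmps, the GMP synthetase that aminates XMP in the last step to GMP. Gmps was at 119, 135 and 127 CPM with IGF-1 and at 80.6, 96.7 and 92.7 CPM in controls, with no overlap. Its log2 fold change was 0.50 (SE 0.12, 95% interval 0.22 to 0.77, edgeR adjusted p = 0.139), which did not pass. It did pass with DESeq2 (DESeq2 adjusted p = 0.0157) and with no filter on low counts (edgeR adjusted p = 0.0491), and its edgeR adjusted p over the fits without 1 library ran from 0.149 to 0.456, highest without control replicate 3.

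Ppat, the amidotransferase that commits PRPP to purines, was at 28.5, 29.5 and 40.6 CPM with IGF-1 and at 27.2, 21.9 and 27.9 CPM in controls. The groups were separated by a narrow margin, with IGF-1 replicate 3 well above the rest (log2 fold change 0.35, SE 0.19, edgeR adjusted p = 0.515). Ppat and Paics start 276 bases apart on opposite strands, run across each other's first exons and share 6.2% of the exon bases of Ppat, and the library kit does not mark strand. Paics, which carries out the carboxylation and the following step, was the most abundant of the 9 per exon length (49.3 and 45.9 CPM per kilobase with and without IGF-1) and differed by 0.10 (SE 0.13). The remaining enzymes of the route to IMP, Gart, Pfas, Adsl and Atic, lay between -0.25 and 0.08, all with edgeR adjusted p of at least 0.672.

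At the branch to GMP the IMP dehydrogenases were not called, and their groups overlapped. Impdh2 averaged 83.6 CPM with IGF-1 and 83.0 CPM in controls (log2 fold change 0.01, SE 0.15, 95% interval -0.31 to 0.33), and Impdh1 16.9 and 18.0 CPM (-0.10, SE 0.35). Impdh2 was the main form, at 27.2 CPM per kilobase with IGF-1 and 27.0 in controls, against 5.12 and 5.48 for Impdh1. It shares 67.6% of its 50-base stretches with the pseudogene Impdh2-ps, which has its own 657 to 759 counts with IGF-1 and 524 to 695 in controls, so part of its reads may be missing or misplaced.

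**Figure D2:**
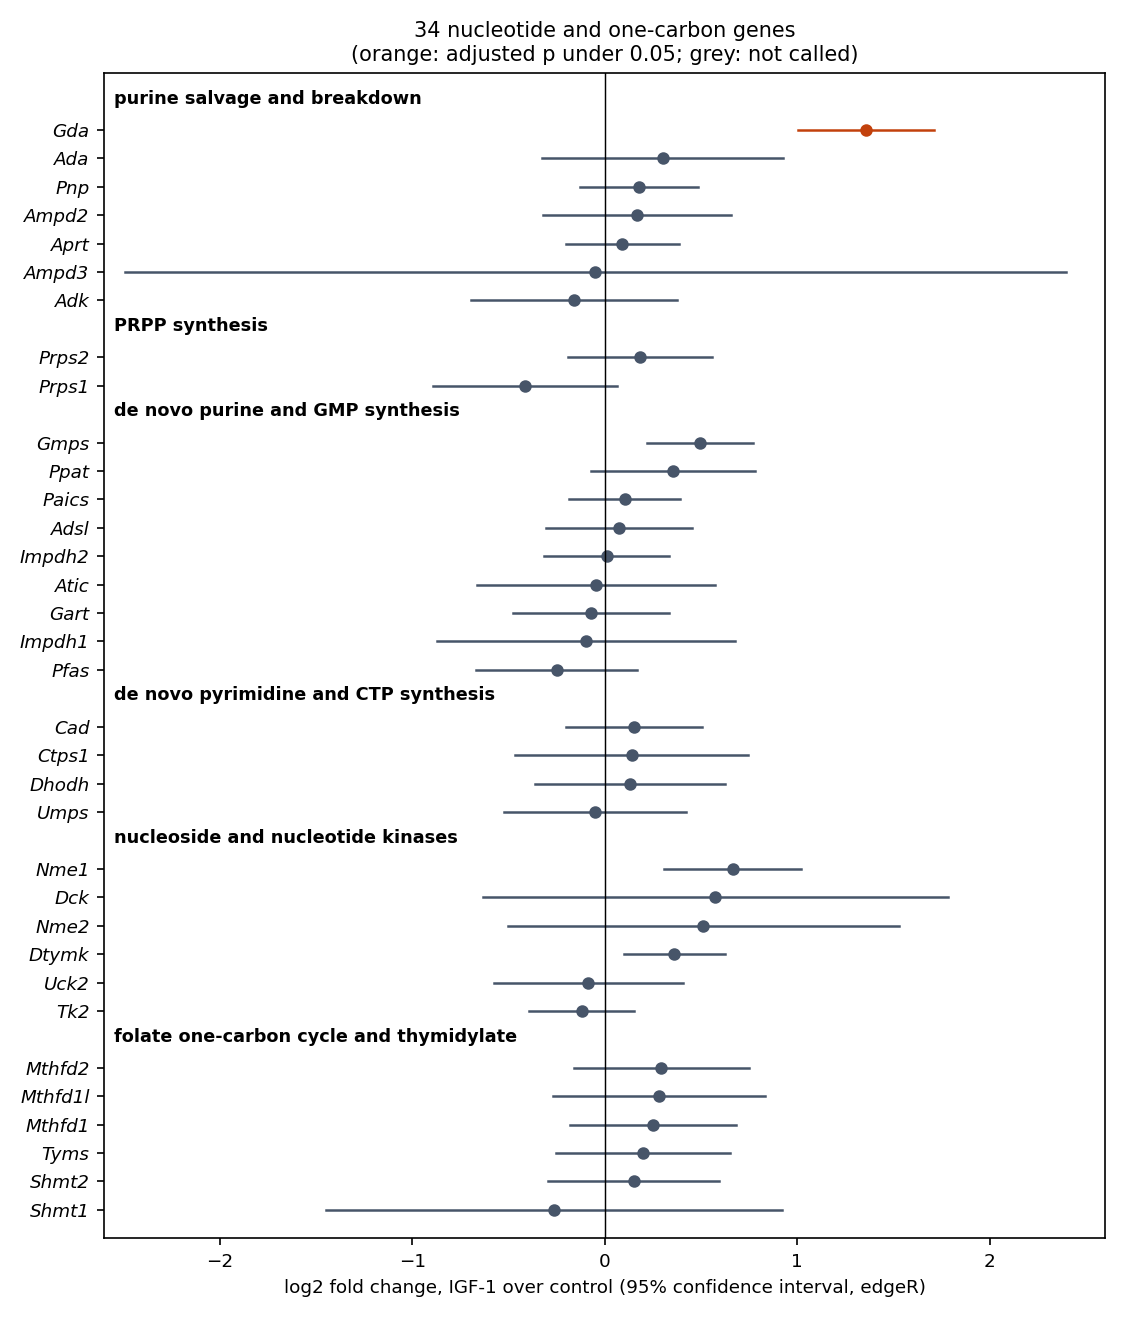
Log2 fold changes of IGF-1 over control (x axis) for the 34 genes (y axis), grouped by role, with 95% confidence intervals from edgeR. Gda, in orange, stands at 1.36 and is the single gene called; the other 33 lie between -0.42 and 0.67, and Nme1, Gmps and Dtymk are the uncalled genes whose intervals leave out 0.

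De novo pyrimidine synthesis held 0 called genes of 4, with 3 positive fold changes and a median of 0.14. Cad, the multifunctional enzyme that starts the route, was at 116, 147 and 159 CPM with IGF-1 and at 106, 146 and 128 CPM in controls (log2 fold change 0.15, SE 0.16, edgeR adjusted p = 0.783). Dhodh, its mitochondrial dehydrogenase, was at 18.5, 22.4 and 22.6 CPM with IGF-1 and at 23.6, 20.4 and 14.0 CPM in controls (0.13, SE 0.22, edgeR adjusted p = 0.879). Both pairs of groups overlapped. Umps, which completes UMP, differed by -0.05 (SE 0.21), and the CTP synthetase Ctps1 by 0.14 (SE 0.27). The 95% intervals of these 4 genes spanned -0.52 to 0.75 in all, and differences within that range were not resolved at this replication.

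The nucleoside and nucleotide kinases had a median of 0.44, with 4 of 6 positive, 3 of 6 higher without overlap (8.81% of all genes were) and 0 called by edgeR. Without Nme2 and Dck, which averaged under 5 CPM, the median of the other 4 was 0.14. Nme1, a nucleoside diphosphate kinase that charges GDP and the other diphosphates with ATP, was at 358, 410 and 272 CPM with IGF-1 and at 224, 238 and 193 CPM in controls. All IGF-1 libraries were above the controls, by the least in IGF-1 replicate 3. The log2 fold change was 0.67 (SE 0.16, 95% interval 0.31 to 1.02, edgeR adjusted p = 0.126), which did not pass. Nme1 passed with DESeq2 (DESeq2 adjusted p = 0.00218), with no filter (edgeR adjusted p = 0.000681) and with a stricter filter (edgeR adjusted p = 0.0373), and its edgeR adjusted p over the fits without 1 library ran from 0.0699 to 0.474, again highest without control replicate 3.

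Nme2, a close relative of Nme1 next to it on chromosome 11, had very few reads. It was at 3.04, 4.03 and 2.81 CPM with IGF-1 and at 2.79, 1.61 and 2.51 CPM in controls (log2 fold change 0.51, SE 0.46, edgeR adjusted p = 0.736). The lowest IGF-1 library was barely above the highest control library, and the interval of -0.50 to 1.53 is wide. In the GENCODE M21 annotation a readthrough gene, Gm20390, covers 48.9% of the exon bases of Nme2 and 12.5% of those of Nme1 on the same strand. How the authors' counting treated such reads is not given in the sources used here, and the part of this overlap in the low level of Nme2 was not tested.

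Dtymk, the thymidylate kinase needed for dTTP, was at 109, 107 and 101 CPM with IGF-1 and at 84.2, 87.4 and 76.1 CPM in controls. The groups were well apart and tight, and the log2 fold change was 0.36 (SE 0.12, 95% interval 0.10 to 0.62, edgeR adjusted p = 0.246), which did not pass by edgeR or in any alternative run. The 12 markers of cycling cells, among them Mki67, Top2a and Pcna, summed to 234 to 256 CPM with IGF-1 and 211 to 260 CPM in controls, and 0 of them were called. Pcna was the largest part of these sums, at 123 to 126 CPM with IGF-1 and 105 to 134 CPM in controls. Mki67 was at 6.12 to 12.05 CPM with IGF-1 and 4.91 to 8.64 CPM in controls, so the sums say little about it. The deoxynucleoside kinase Dck (0.58, SE 0.55) had few reads and ran from 0.022 to 0.98 over the fits without 1 library, and the uridine-cytidine kinase Uck2 (-0.08, SE 0.22) and the mitochondrial thymidine kinase Tk2 (-0.12, SE 0.12) had overlapping groups.

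In the folate cycle 5 of 6 genes had positive fold changes, with a median of 0.23, and 0 were called or had separate groups. Mthfd2, the mitochondrial dehydrogenase that is low in most resting tissue and raised in proliferating cells, was at 56.1, 36.5 and 34.5 CPM with IGF-1 and at 40.0, 32.6 and 31.0 CPM in controls. IGF-1 replicate 1 was high and the other IGF-1 libraries lay within the control range (log2 fold change 0.29, SE 0.21, edgeR adjusted p = 0.639). Mthfd1, the cytosolic trifunctional enzyme, was at 18.6, 22.2 and 23.7 CPM with IGF-1 and at 21.0, 16.2 and 17.0 CPM in controls (0.25, SE 0.19, edgeR adjusted p = 0.677). Mthfd1l, which releases mitochondrial formate, differed by 0.28 (SE 0.25), thymidylate synthase Tyms by 0.20 (SE 0.20) and the mitochondrial serine hydroxymethyltransferase Shmt2 by 0.15 (SE 0.20). Shmt2 was the main form, at 15.5 CPM per kilobase with IGF-1 and 14.0 in controls, against 0.614 and 0.737 for the cytosolic Shmt1, whose difference was -0.26 (SE 0.53). Over the fits without 1 library the fold changes ran from 0.038 to 0.42 for Mthfd2, 0.057 to 0.47 for Mthfd1l, 0.047 to 0.33 for Tyms and 0.022 to 0.39 for Shmt2.

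**Figure D3:**
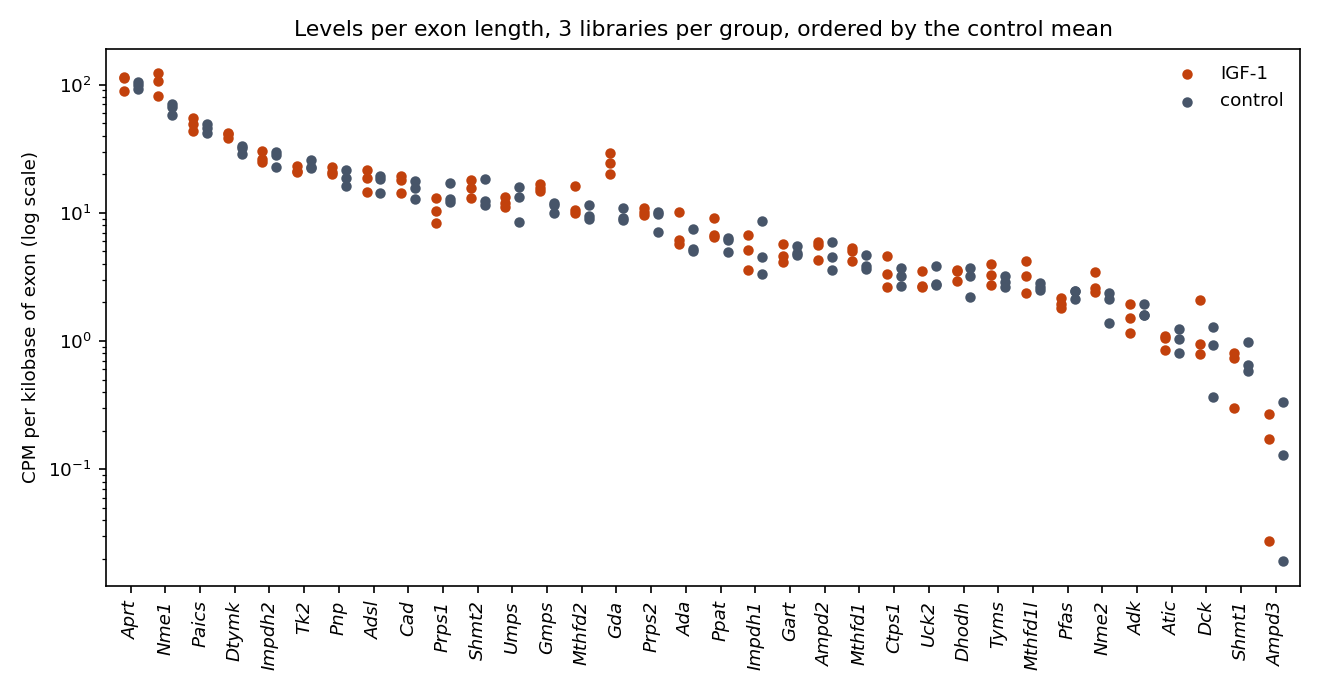
CPM per kilobase of exon (y axis, log scale) of the 34 genes (x axis, ordered by the control mean), with 3 IGF-1 libraries in orange and 3 control libraries in grey. Aprt, Nme1 and Paics lead in both groups, and Gda holds place 6 with IGF-1 and place 15 among the controls.

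Ranked by level per exon length, the 34 genes spanned 105 to 0.156 CPM per kilobase with IGF-1 and 98.9 to 0.161 CPM per kilobase in controls. The lengths are unions of exons in GENCODE M21, not the annotation counted by the authors, so the order is approximate. Aprt and Nme1 were first in both groups, and with IGF-1 they did not differ beyond their spread (105 ± 13.8 and 104 ± 20.9 CPM per kilobase, SD, n = 3). Gda held place 6 with IGF-1, at 24.6 ± 4.58 CPM per kilobase, and place 15 in controls, at 9.60 ± 1.06 CPM per kilobase, where it did not differ beyond its spread from its neighbours Mthfd2 (9.92 ± 1.38) and Prps2 (9.00 ± 1.63).

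Summed per library, the 34 genes held 1982, 2100.3 and 1949 CPM with IGF-1, against 1739, 1650.3 and 1581 CPM in controls, a mean 21.4% higher with IGF-1. Gda and Nme1 made up most of this: without them the other 32 genes summed to 1441, 1539 and 1552 CPM with IGF-1 and 1457, 1345 and 1333 CPM in controls, a mean 9.6% higher, and the groups overlapped. These sums weight abundant genes and carry no test. Of the 34 genes 23 had a positive log2 fold change (67.6%), against 48.7% of all genes tested, and the median was 0.15 against -0.01. Without Gda the median was 0.14. The median ran from 0.057 without IGF-1 replicate 3 to 0.27 without control replicate 1, and was 0.11 without control replicate 3.

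**Figure D4:**
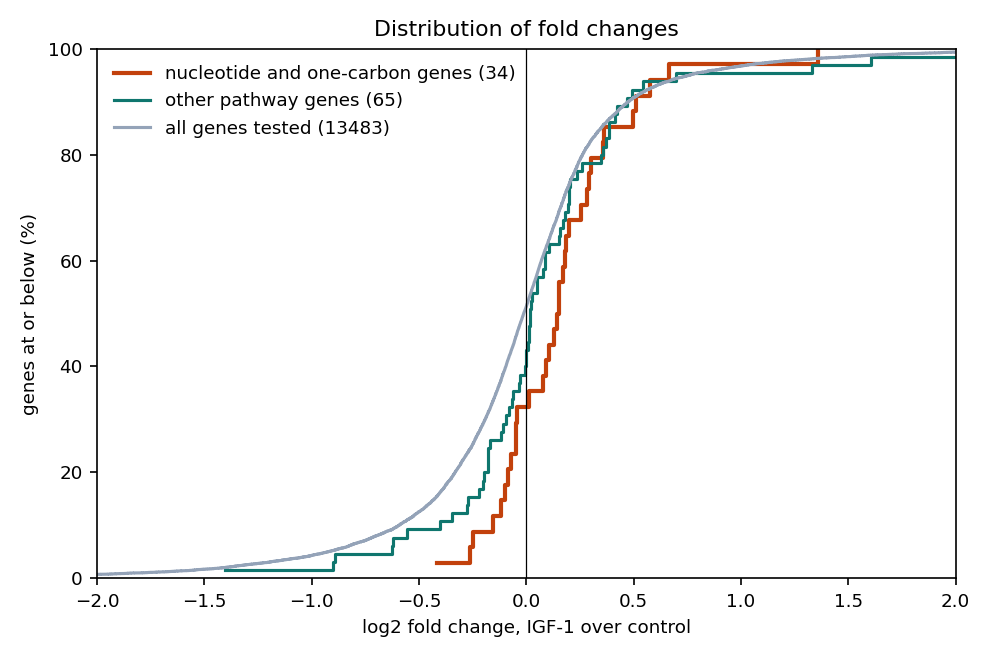
Cumulative share of genes (y axis, %) at or below a log2 fold change of IGF-1 over control (x axis, shown from -2 to 2) for the 34 nucleotide and one-carbon genes, 65 other genes of the same pathways and all 13483 genes tested. The curve of the 34 genes starts at -0.42 and crosses 50% at 0.15; that of the other pathway genes crosses near 0.02 and that of all genes near -0.01.

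Of 75 further genes of the same pathways, 73 had a row and 65 passed the filter. By edgeR 0 were called in either direction, against 0.497% of all genes. At an unadjusted p under 0.05 edgeR gave 4 higher and 4 lower, or 12.3% of the 65, against 11.8% of all genes. DESeq2 called 2 higher and 1 lower, against 1.48% and 1.90% of all genes. By limma-voom 0 were higher and 1 was lower, against 36 and 60 of all 13483 genes. The groups did not overlap in 11 of the 65 (16.9%), against 18.0% of all genes, and the median log2 fold change was 0.02. The gene with the smallest p was Samhd1, which hydrolyses deoxynucleotides and is itself interferon-inducible. Samhd1 was at 329, 314 and 293 CPM with IGF-1 and at 444, 476 and 455 CPM in controls, with tight and separate groups (log2 fold change -0.55, SE 0.11, edgeR adjusted p = 0.0717). Its adjusted p over the alternatives ran from 0.000203 with DESeq2, where it was called, to 0.299 without control replicate 3.

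Hprt (Hprt1 in the table), which salvages guanine and hypoxanthine and so competes with Gda for guanine, was at 273, 275 and 224 CPM with IGF-1 and at 171, 195 and 192 CPM in controls. The groups were separate and the difference did not pass by edgeR (0.47, SE 0.13, edgeR adjusted p = 0.174), while DESeq2 gave an adjusted p of 0.0196, within a range of 0.0196 to 0.500 over the alternatives. Without control replicate 3 the edgeR adjusted p of Hprt1 was 0.474. Psph, the last enzyme of serine synthesis, was at 42.2, 56.5 and 41.1 CPM with IGF-1 and at 29.4, 25.5 and 31.4 CPM in controls (0.70, SE 0.17, edgeR adjusted p = 0.135), again without overlap. Psph passed with DESeq2 (DESeq2 adjusted p = 0.0154) and with no filter (edgeR adjusted p = 0.0130), and its edgeR adjusted p over the fits without 1 library reached 0.435 and was 0.368 without control replicate 3. Among genes picked after their values were seen, Xdh, which oxidises the xanthine that Gda makes, was at 21.9, 27.3 and 39.9 CPM with IGF-1 and at 42.6, 36.3 and 58.1 CPM in controls, with overlap (-0.62, SE 0.24, edgeR adjusted p = 0.337). Xdh passed as lower with no filter (edgeR adjusted p = 0.0461), and its edgeR adjusted p was 0.808 without control replicate 3. The glycine cleavage protein Gcsh was at 123, 133 and 118 CPM with IGF-1 and at 92.1, 103 and 84.5 CPM in controls, without overlap (0.41, SE 0.13, edgeR adjusted p = 0.206). Uridine phosphorylase Upp1 was at 1442, 1749 and 1632 CPM with IGF-1 and at 2066, 1888 and 1863 CPM in controls (-0.27, SE 0.11, edgeR adjusted p = 0.360). Its groups did not overlap either, with the IGF-1 libraries lower.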

How the data were processed

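The authors deposited raw counts per gene symbol, 1 column per library, for 6 libraries; per the labels' protocols, cDNA was made with SMART-Seq HT directly on cell lysate. The submitters' processing notes name fastp 0.23.2, HISAT2 2.2.1, SAMtools 1.15.1, featureCounts 1.5.3 and the build GRCm39. Neither the annotation release nor the handling of strand and of shared reads is given in those notes. That all cultures held interferon-γ is from the series' design text; libraries were grouped by title.

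Genes were kept by filterByExpr (minimum count 10, minimum total 15; 13483 genes, 0.0806% of counts removed) and compared by group alone with TMM factors, glmQLFit and glmQLFTest of edgeR 4.0.16 (R 4.3.3), with Benjamini-Hochberg adjustment over all genes. The SE is the size of the fold change divided by the square root of F, and 95% intervals use the test's degrees of freedom. No set test was run. Alternatives were DESeq2 1.42.0, limma-voom 3.58.1, 3 other scalings, 2 other filters, a replicate block, an adjusted p of 0.1 and each library left out. The procedure was tested on simulated data. The genes and lists were chosen with earlier results of these data known. Text values were given for called genes, genes without overlap and the 2 smallest p of each role, then the 3 smallest p of the further list. Hprt was matched to Hprt1, and Ctps1 to Ctps, through RefSeq synonyms; Adssl1 and Ak6 had no row of their own. Promoters (RefSeq, GRCm38.p6) matched 32 of 34 genes, all but Dhodh and Pfas; exon lengths and shared 50-base stretches are from GENCODE M21 (GRCm38). No coordinates were set against the counts' build. Replicate libraries differed far beyond sampling noise (chi-square per degree of freedom 39 to 88.5 within groups), so each was counted as 1 sample; this does not tell separate cultures from repeat preparations of one lysate. The protocol has no molecular identifiers, so counts overstate the number of independent molecules. The smallest p that exact permutation (two-sided) allows for 1 gene here is 0.1.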

Additional observations from a re-analysis of the deposited data

How the results depend on the processing

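Of the 33 genes of the list other than Gda, Nme1 passed in 3 alternatives (DESeq2, no filter and the stricter filter) and Gmps in 2 (DESeq2 and no filter); the others passed in none of those run. Of 471 fold changes of the 34 genes over the alternatives, 446 kept their direction, and 21 genes never changed sign. Of the 25 reversals, 21 came from leaving out 1 library, and 13 genes reversed at least once. The other alternatives used the same 6 libraries, so a sign kept there says little. With no filter 171 genes of all were higher and 258 lower, with 3 of the list higher. Among the further pathway genes 1 was then higher (Psph) and 2 were lower (Samhd1 and Xdh). With DESeq2 these counts were 200 and 256, 3, and 2 and 1. With at least 10 CPM in 3 libraries they were 63 and 115, 2, and 0 and 1; this filter gave no value for Ampd3, Atic, Dck, Nme2 and Shmt1. With limma-voom 60 genes were lower, and with limma-voom, library size scaling or an adjusted p under 0.1 the further list had 1 lower (Samhd1); at 0.1 all genes gave 57 and 87. The causes were not tested. Without 1 library each, calls over all genes ran from 0 to 24 higher and 0 to 31 lower, those of the list from 0 to 1 higher, and its median from 0.057 to 0.27.

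Same-numbered libraries did not visibly deviate together (correlation -0.05, 0.00312 and 0.06 for numbers 1, 2 and 3). With 3 libraries per group this cannot show whether the numbers pair them, so both designs are given. With the replicate as a block 3 genes were higher and 5 lower, Gda among the higher (log2 fold change 1.35, edgeR adjusted p = 0.0469), and Ampd3 was at 0.17. Ampd3 was at 0.19 with limma-voom, and Impdh2 at -0.022 with library size scaling and -0.0028 with at least 10 CPM.

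Signs that changed on leaving out 1 library belong to genes not called, with fold changes up to 0.30 for Ada and -0.26 for Shmt1. Their ranges were -0.0048 to 0.51 for Ada, -0.36 to 0.0088 for Adk, -0.70 to 1.07 for Ampd3, -0.21 to 0.030 for Gart, -0.060 to 0.22 for Adsl, -0.19 to 0.11 for Atic, -0.36 to 0.38 for Impdh1, -0.10 to 0.092 for Impdh2, -0.057 to 0.30 for Dhodh, -0.27 to 0.16 for Umps, -0.10 to 0.31 for Ctps1, -0.23 to 0.092 for Uck2, -0.51 to 0.067 for Shmt1 and -0.10 to 0.32 for Slc29a1. Ampd3, Nme2, Shmt1 and Dck had few reads, each with a mean under 5 CPM, and why was not tested.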

Other observations

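Genes that set extracellular and intracellular adenosine were picked here after their values were seen. Nt5e (CD73), the ectoenzyme that makes adenosine from AMP, was at 225, 174 and 241 CPM with IGF-1 and at 289, 252 and 275 CPM in controls. Its groups did not overlap, as for 9.17% of all genes in that direction, and the difference did not pass (log2 fold change -0.35, SE 0.14, edgeR adjusted p = 0.364). The enzymes that remove adenosine, Ada and Adk, and the nucleoside transporters Slc29a1 (0.19, SE 0.27) and Slc29a3 (0.26, SE 0.28) had overlapping groups and were not called by edgeR. Of the other transporters listed, Slc28a2 also overlapped (0.39, SE 0.30), and Slc29a2 was at 1.13, 0.812 and 1.84 CPM with IGF-1 and at 0.0806, 0.688 and 0.474 CPM in controls, separate but with few reads (1.60, SE 0.94, edgeR adjusted p = 0.557).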
